A study of Mus musculus with 16 samples.

Results

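Cardiac fibroblasts that respond to injury switch on a set of genes for matrix proteins, secreted factors and cell-surface proteins. This account follows 10 such genes, named by symbol, out of the 19707 gene symbols listed in at least 1 of 3 tables of normalized counts from mouse heart fibroblasts. They encode periostin (Postn), tenascin C (Tnc), collagen triple helix repeat containing 1 (Cthrc1), fibronectin (Fn1), osteopontin (Spp1), pleiotrophin (Ptn), fibroblast activation protein (Fap), the ion channel Piezo2, dimethylarginine dimethylaminohydrolase 1 (Ddah1) and the homeobox transcription factor Meox1. All 10 were listed in all 3 tables and passed the filter on low values in every group, the lowest single value being 28.1 normalized counts, for Cthrc1 in an uninjured control.

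The cells were sorted for EGFP from a Rosa26 reporter that Cre recombinase switches on, from mice 8 to 12 weeks old, all given tamoxifen. Tcf21 loss, uninjured, was Tcf21-MerCreMer:Tcf21-fl (3 libraries), set against Tcf21-MerCreMer alone (3 libraries), both taken 2 weeks after tamoxifen. Tcf21 loss, infused, was the same genotype (2 libraries) against Tcf21-MerCreMer (3 libraries), both after 1 week of continuous angiotensin II and phenylephrine. TCF21 gain, infused, was Pdgfra-creERT:Col1a1-TCF21 (2 libraries) against Pdgfra-creERT (3 libraries) after the same infusion. No uninjured libraries of the gain arm were analysed here. Every loss-arm mouse, controls included, carried Tcf21-MerCreMer, with its Cre driven from Tcf21, and every gain-arm mouse carried Pdgfra-creERT. Separate animals are not stated for the libraries of a group, so a p-value here measures the spread between libraries, which may be technical.

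After injury or pressure overload, resident fibroblasts of the heart become activated: they divide, lay down collagen and other matrix, and part of them gain contractile fibers. Periostin and tenascin C are matricellular proteins, which sit in the matrix and act on cells more than they bear load, and in mouse hearts periostin marks activated fibroblasts. TCF21 belongs to the basic helix-loop-helix transcription factors, which bind E-box sequences (CANNTG) in DNA, and it is made by fibroblasts and their epicardial precursors.

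The tables hold counts as the authors normalized them, and a library summed to between 27814940 and 40970391. The targeted gene followed the labels. Tcf21 held 1244, 1254 and 1718 normalized counts in uninjured loss libraries, against 7825, 8081 and 7507 in their controls, 258 and 185 in infused loss libraries, against 2814, 1802 and 1510, and 14820 and 13502 in gain libraries, against 6058, 5145 and 6235. Which sequence the transgene carries, and so whether its transcripts are counted under Tcf21, is not given in the sources used here. All 12 fibroblast markers were above 0 in every group. Their summed level was 4061760 to 4256230 in uninjured loss libraries, against 4207610 to 4586430 in controls. It was 3226290 and 3730200 in infused loss libraries, against 3028010 to 3424330 in controls. In gain libraries it was 3192490 and 3385420, below all their controls (4420080 to 4711160). The tables were normalized separately, so each test compares groups within a table. Genes with a mean of at least 10 normalized counts in a table were tested with limma on log2(normalized count + 1), 2-sided, with p-values adjusted by Benjamini-Hochberg over all genes tested, and "rose" and "fell" are written for an adjusted p below 0.05. In sorted bulk cells, fewer cells of a type and less RNA per cell cannot be told apart.

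In control libraries the order of the 10 genes differed between uninjured and infused hearts. Levels were set per kilobase of the longest transcript in GENCODE vM21 and are read within a table. In uninjured Tcf21-MerCreMer controls Postn led with 4409 ± 893 normalized counts per kilobase (SD, n = 3). Meox1 (2360 ± 206) and Fn1 (2255 ± 414) came next and did not differ beyond their spread, followed by Fap (1383 ± 72.3) and Ptn (550 ± 8.89). Spp1 (97.7 ± 37.3) and Tnc (83.0 ± 15.2) overlapped each other, and so did the neighbours Ddah1 (44.7 ± 14.8), Cthrc1 (37.1 ± 16.9) and Piezo2 (21.0 ± 7.37). Levels per kilobase in infused Tcf21-MerCreMer controls ran from Postn (133941 ± 32405), Fn1 (42364 ± 8930) and Cthrc1 (17551 ± 4763), each clear of its neighbours, to Fap (1105 ± 68.5) and Piezo2 (133 ± 42.0) at the low end. Between them Ptn (4577 ± 832), Meox1 (3920 ± 237), Spp1 (3846 ± 2014), Ddah1 (3761 ± 1348) and Tnc (3184 ± 781) overlapped from 1 neighbour to the next. The infused Pdgfra-creERT controls kept the same top 3 and the same bottom 2 genes, with Postn at 139111 ± 31200, Fn1 at 54728 ± 13892, Cthrc1 at 24489 ± 8879, Fap at 938 ± 44.5 and Piezo2 at 148 ± 17.04 normalized counts per kilobase. With the median transcript length in place of the longest, 5 of the 10 genes kept their place in the uninjured order, and Postn (8624 ± 1747) and Fn1 (6749 ± 1239) then overlapped.

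**Figure D1:**
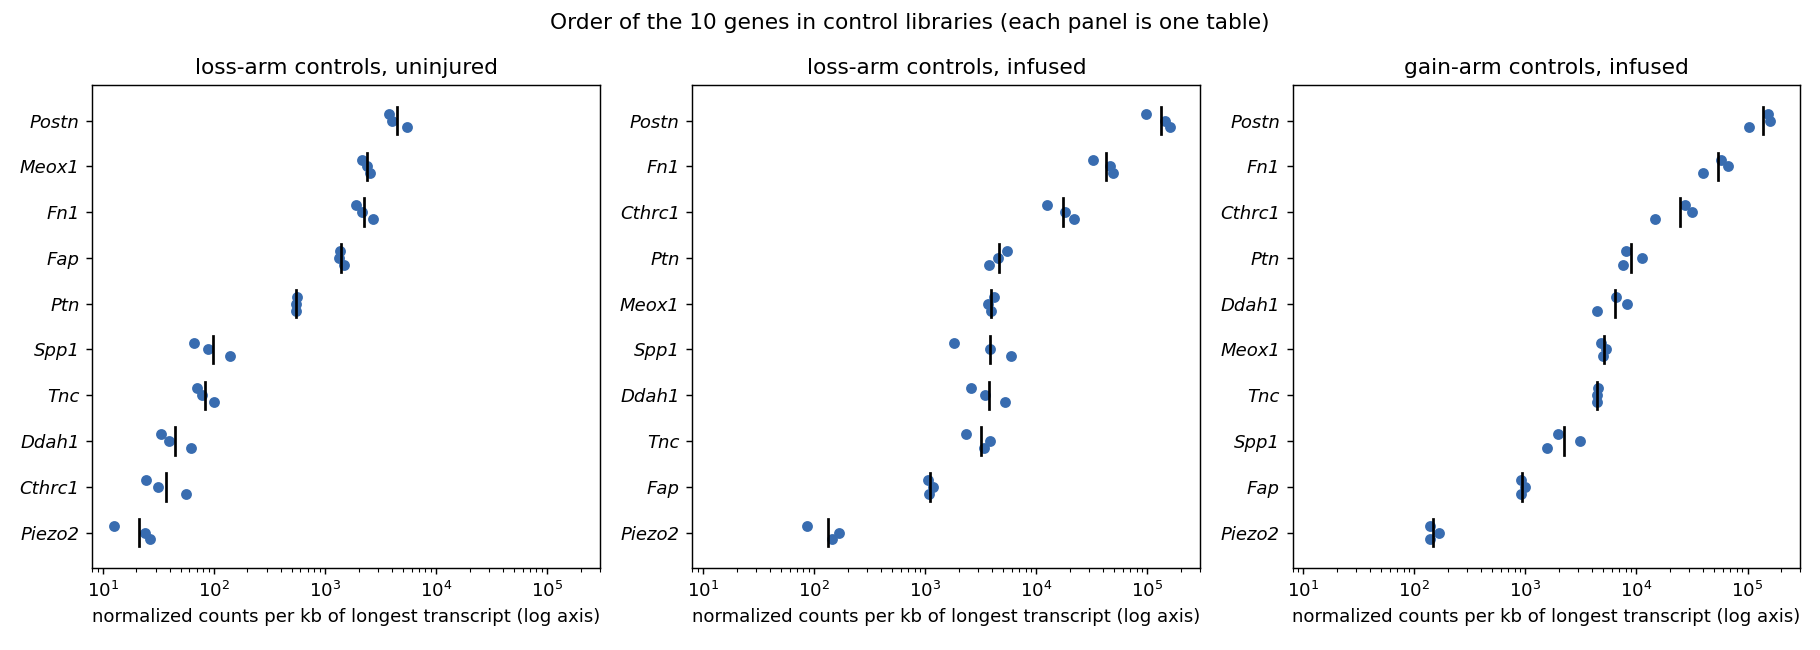
Normalized counts per kilobase of the longest transcript (log axis) of the 10 genes in the 3 control libraries of each table, with points for libraries and bars for means. Postn leads in all 3 panels, and Cthrc1 is near the bottom in uninjured controls and just under Fn1 in both sets of infused controls.

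Cthrc1 stood at rank 119 to 223 among all genes by normalized count in infused Tcf21-MerCreMer controls, against rank 11973 to 13247 in uninjured ones. Postn took 1.79% to 2.94% of all normalized counts of a library in infused Tcf21-MerCreMer controls and 1.37% to 2.04% in infused Pdgfra-creERT controls, against 0.0519% to 0.0751% in uninjured Tcf21-MerCreMer controls. By normalized count it stood at rank 2 to 5 in every infused control. Fn1 took 0.937% to 1.43% in infused Tcf21-MerCreMer controls, against 0.0416% to 0.0596% in uninjured ones. Fap took 0.0106% to 0.0120% in infused Tcf21-MerCreMer controls, against 0.0101% to 0.0111% in uninjured ones, so its share overlapped. The share of Meox1 was 0.0291% to 0.0324% in infused and 0.0126% to 0.0151% in uninjured Tcf21-MerCreMer controls. These shares come from tables normalized separately and were not tested. Mean shares in infused Tcf21-MerCreMer and Pdgfra-creERT controls were 2.46% and 1.79% for Postn and 0.0412% and 0.0563% for Ptn. Those of Tnc were 0.0797% and 0.0781%, and those of Spp1 were 0.0204% and 0.00819%. These means were not tested either.

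Deletion of Tcf21 in uninjured hearts raised 1 of the 10 genes, Meox1, by 1.53-fold. Of 15544 genes tested, 3.58% passed the threshold and 1.63% rose. At an unadjusted p below 0.05, 7 of the 10 differed (21.2% of all genes tested), 5 higher and 2 lower, and the groups did not overlap for 6 (27.7% of all genes). The median log2 change of the 10 was 0.42, and that of all genes tested was -0.01. After infusion, deletion of Tcf21 changed 0 of the 10 genes in limma (0.912% of 14799 genes passed). At an unadjusted p below 0.05, 4 differed, all higher in loss libraries (16.1% of all genes), the groups did not overlap for 4 (35% of all genes), and the median log2 change was 0.43, against 0.00017 over all genes tested. Gain of TCF21 under infusion lowered 2 of the 10, Cthrc1 and Fap, and raised Meox1. Of 15369 genes tested, 4.14% passed, 1.57% higher and 2.57% lower. At an unadjusted p below 0.05, 6 of the 10 differed (20.4% of all genes), 5 of them lower, the groups did not overlap for 7 (39.3% of all genes), and the median log2 change was -0.65, against 0.0066 over all genes tested.

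**Figure D2:**
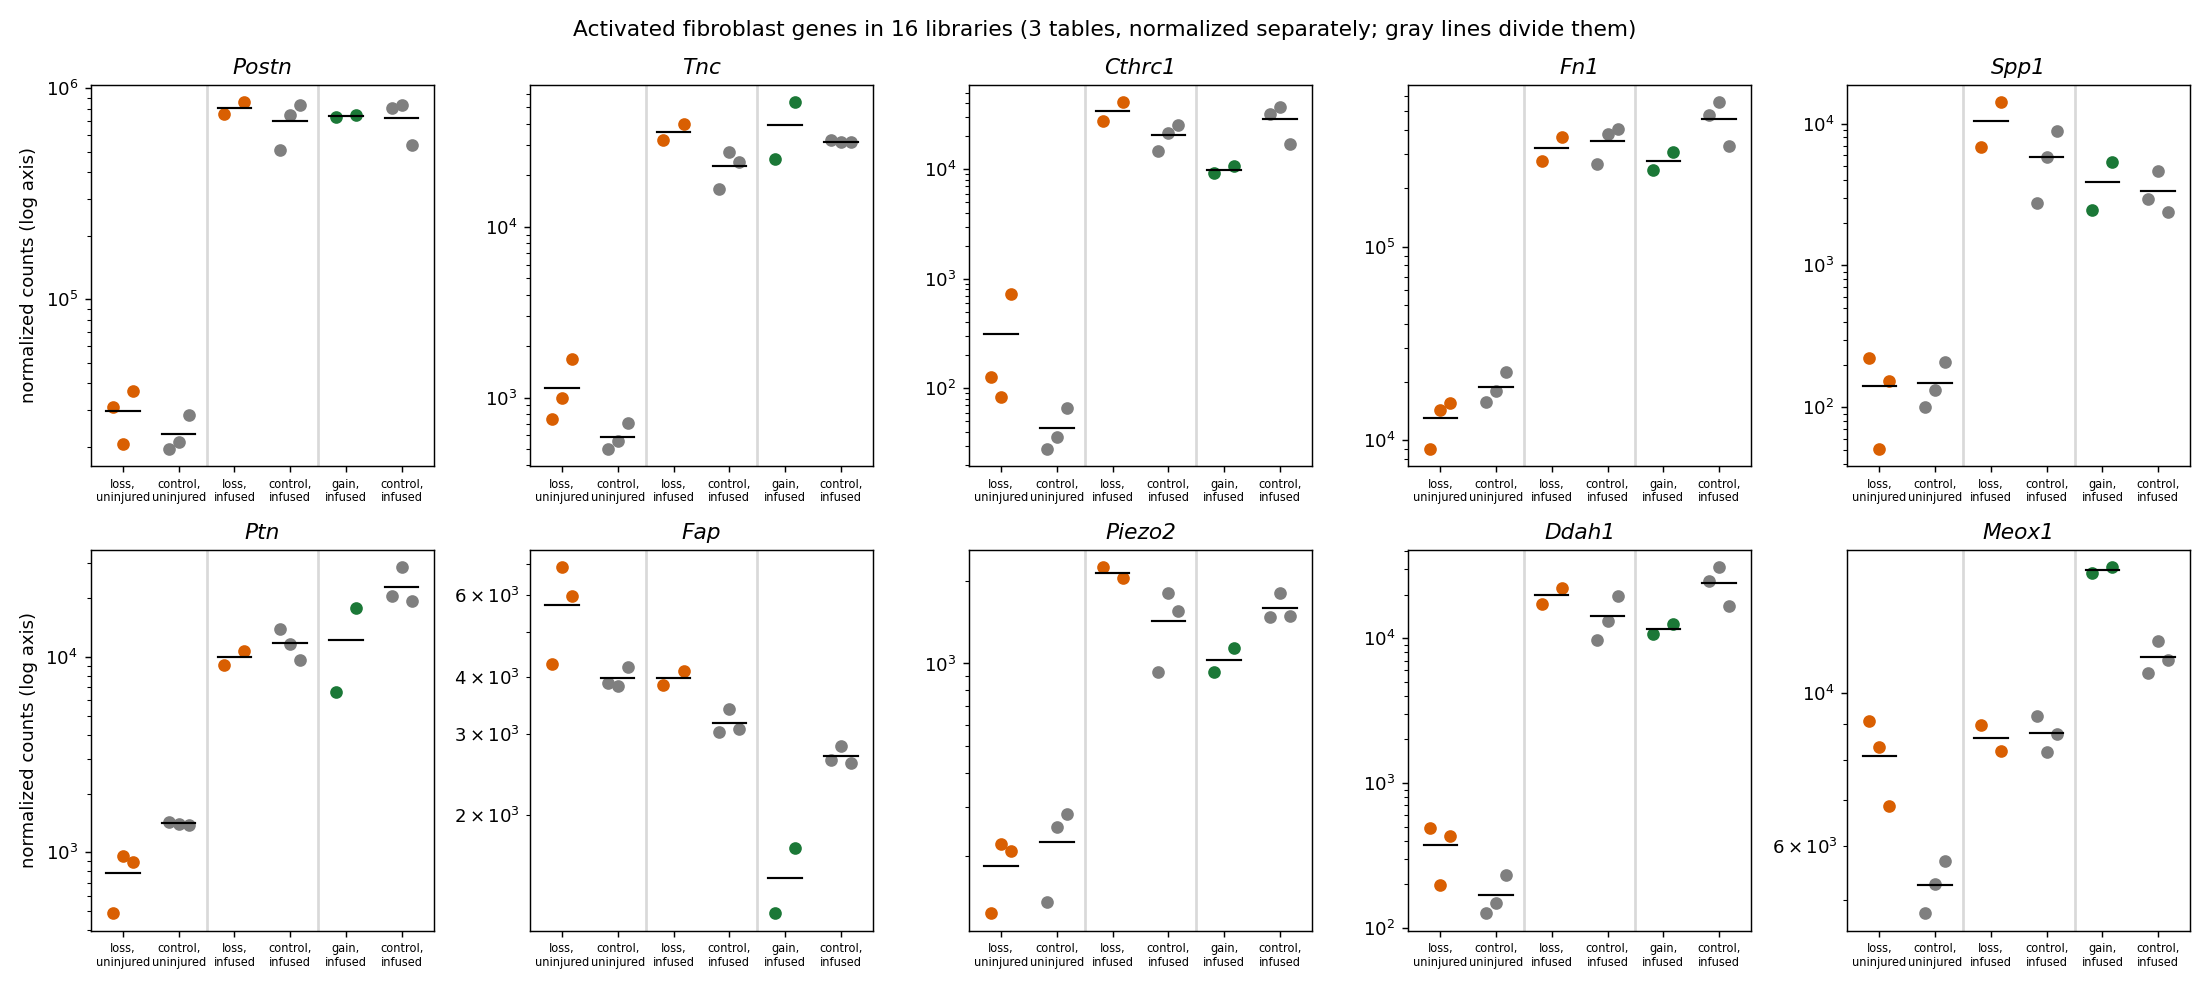
Normalized counts of the 10 genes in all 16 libraries (log axes; points are libraries, bars are group means; gray lines divide the 3 tables), with loss or gain left of its controls. Meox1 is higher in all uninjured loss and all gain libraries than in their controls, and Cthrc1 and Fap are lower in both gain libraries than in all 3 controls.

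Postn (chromosome 3, 54361109 to 54391037, plus strand; these and the other gene positions are from GENCODE vM21, build GRCm38) encodes periostin, a secreted protein that binds integrins and helps link collagen fibers. It held 30968, 20580 and 36969 normalized counts in uninjured loss libraries, against 19642, 21094 and 28346 in controls. The ranges overlapped, since the second loss library lay among the controls (log2 change 0.33, SE 0.21, 95% interval -0.14 to 0.81, limma adjusted p = 0.397). In infused hearts it reached 757102 and 859120 in loss libraries, against 510755, 750319 and 837653 in controls. In the gain arm it held 733887 and 746592 in gain libraries, against 803040, 837243 and 539447 in controls. Both infused comparisons overlapped as well, with a log2 change of 0.24 (95% interval -0.85 to 1.32, limma adjusted p = 0.831) for loss and 0.054 (-0.77 to 0.88, adjusted p = 0.956) for gain. A change of Postn was not detectable with these libraries.

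Promoter windows of 300 bases, from 250 before to 50 after a RefSeq transcript start on GRCm38.p6, were held for 5 of the 10 genes: Postn, Ddah1, Tnc, Spp1 and Ptn, in 8 windows. Those of Cthrc1, Fap, Fn1, Meox1 and Piezo2 were not used here. The E-box letters CANNTG, which read the same on both strands, were in 5 of the 8 windows, against 72.3% of 32851 promoter windows. The CAGCTG form, a subset of those letters, was in 0 of the 8 (16.3% of all windows), the AP-1 letters TGANTCA were in 0 (7.81%), and TATAAA, searched on both strands, was in 4 (13.6%). The pair of Tnc windows overlap in most of their bases and each holds E-box letters and TATAAA, so the 8 windows are not separate. A match is a description of letters, not a bound site. The 250 bases before 2 starts are shown, in capitals where they match CANNTG or TATAAA: Postn as the best known marker of the set, which holds TATAAA close to the start and no E-box, and Ddah1, chosen after its values were seen, which holds 3 E-boxes. They are the plus strand of chr3:54360857-54361106 (Postn) and chr3:145758442-145758691 (Ddah1), 5′ to 3′.
Postn: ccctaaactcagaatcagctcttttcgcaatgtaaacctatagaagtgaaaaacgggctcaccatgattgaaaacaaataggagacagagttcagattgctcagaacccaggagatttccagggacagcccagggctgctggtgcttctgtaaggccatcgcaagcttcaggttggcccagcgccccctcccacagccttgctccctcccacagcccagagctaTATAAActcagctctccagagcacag
Ddah1: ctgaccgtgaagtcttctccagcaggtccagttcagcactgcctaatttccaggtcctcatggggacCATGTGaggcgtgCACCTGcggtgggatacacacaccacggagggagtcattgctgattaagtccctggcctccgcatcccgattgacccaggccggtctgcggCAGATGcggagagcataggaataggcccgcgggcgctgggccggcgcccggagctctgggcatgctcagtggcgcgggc

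Tnc (chromosome 4, 63959785 to 64047015, minus strand) encodes tenascin C, a large matricellular protein of developing and healing tissue. In uninjured hearts it held 750, 993 and 1691 normalized counts in loss libraries, against 502, 556 and 710 in controls. In infused hearts it held 32054 and 40144 in loss libraries, against 16538, 27405 and 23935 in controls. All loss libraries lay above all their controls in both tables, but neither comparison passed the threshold, with a log2 change of 0.89 (SE 0.27, limma adjusted p = 0.108) uninjured and 0.70 (SE 0.23, adjusted p = 0.231) infused. In the gain arm it held 25005 and 53585 in gain libraries, against 31997, 31172 and 31473 in controls. The 2 gain libraries lay on either side of closely spaced controls (log2 change 0.21, SE 0.28, limma adjusted p = 0.729). Without the first uninjured loss library, its uninjured change passed (log2 change 1.15, adjusted p = 0.0333).

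Cthrc1 (chromosome 15, 39076932 to 39087121, plus strand) encodes a secreted glycoprotein made by activated fibroblasts at sites of repair in mouse tissues. It held 9188 and 10614 normalized counts in gain libraries, against 31889, 36828 and 16946 in infused controls. Both gain libraries lay below the lowest control, and Cthrc1 fell to 9901 ± 1008 (SD, n = 2) in gain libraries, against 28554 ± 10352 (n = 3), 2.74-fold lower (log2 change -1.46, SE 0.30, 95% interval -2.16 to -0.75, limma adjusted p = 0.0445). That call was lost without the first (limma adjusted p = 0.119) or second control (0.0637) and without either gain library (0.199 and 0.161), while the log2 change stayed between -1.79 and -1.23 over the 5 fits. Its estimates under loss were positive and did not pass. It held 27710 and 40939 in infused loss libraries, against 14555, 21264 and 25576 in controls, and 127, 82.7 and 723 in uninjured loss libraries, against 28.1, 36.3 and 65.5 in controls. Neither pair of groups overlapped, and the third uninjured loss library stood far above the other 2. The log2 changes under loss were 0.76 (SE 0.27, limma adjusted p = 0.255) infused and 2.25 (SE 0.73, 95% interval 0.61 to 3.90, adjusted p = 0.121) uninjured.

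Fn1 (chromosome 1, 71585520 to 71653200, minus strand) encodes fibronectin, the glycoprotein that cells lay down as an early scaffold for collagen and hold through integrins. In uninjured hearts it held 9071, 14367 and 15549 normalized counts in loss libraries, against 15739, 18008 and 22502 in controls. The highest loss library lay just below the lowest control, and the log2 change was -0.55 (SE 0.20, limma adjusted p = 0.161). In infused hearts it held 277039 and 369946 in loss libraries, against 267650, 382544 and 406574 in controls, with overlap (log2 change -0.11, adjusted p = 0.894). In the gain arm it held 249088 and 306550 in gain libraries, against 479111, 556647 and 329419 in controls. Both gain libraries lay below all controls without a call (log2 change -0.69, SE 0.30, limma adjusted p = 0.261). Fn1 thus had a negative estimate in all 3 comparisons, none past the threshold. Exons of Fn1 and Tnc overlap those of another annotated gene on the opposite strand, over 292 and 176 bases. Whether the counting used strand is not given in the sources used here. Exons of Spp1 overlap those of another gene on the same strand over 309 bases, which strand could not separate.

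Of the secreted ligands, Spp1 (chromosome 5, 104435118 to 104441050, plus strand) encodes osteopontin, a cytokine that binds integrins and CD44 and is made by macrophages as well as fibroblasts. It held 221, 51.1 and 153 normalized counts in uninjured loss libraries, against 99.6, 133 and 209 in controls. It held 6837 and 14139 in infused loss libraries, against 2759, 5803 and 8828 in controls, and 2467 and 5322 in gain libraries, against 2958, 4631 and 2373 in controls. Groups overlapped each time, and Spp1 had the widest spread of the 10 relative to its mean in infused Tcf21-MerCreMer controls, with log2 changes of -0.22 (SE 0.52), 0.92 (SE 0.50) and 0.18 (SE 0.36) and limma adjusted p of 0.839, 0.417 and 0.829 in that order. Summed normalized counts of 21 myeloid markers were 3482 to 4319 in uninjured loss libraries, against 3554 to 3866 in controls, 1184 and 1262 in infused loss libraries, against 1527 to 2129, and 3865 and 6721 in gain libraries, against 3982 to 6142. Of these markers, S100a8 was not listed in any table, Fcgr1 not in the uninjured one, and Ptprc, C1qc, Trem2 and S100a9 not in the infused loss one. S100a9 was at 0 in all uninjured controls and Adgre1 in both infused loss libraries. Of 13 myeloid markers tested under infused loss 1 fell, Cd74 (50.8 normalized counts in loss libraries, against 256 in controls, limma adjusted p = 0.0398), and 0 of the 13 had a log2 change above 0 (median -0.53). The Cd74 call passed in 1 of 5 fits with 1 library left out, that without the third control (adjusted p 0.0687 to 0.275 in the other 4). Of 19 tested under gain 1 fell, Gpnmb (593 in gain libraries, against 1377 in controls, limma adjusted p = 0.0443), while 16 of the 19 had a log2 change above 0 (median 0.69). The Gpnmb call was lost without the first control (adjusted p = 0.106) and without either gain library (0.203 and 0.144). Of 16 tested in uninjured hearts 0 passed and 12 were above 0 (median 0.44). Without a variance trend the calls of Cd74 (limma adjusted p = 0.133) and Gpnmb (0.166) were lost. The part of myeloid RNA in the Spp1 values was not tested.

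Ptn (chromosome 6, 36714929 to 36810220, minus strand) encodes pleiotrophin, a heparin-binding growth factor. It held 488, 964 and 898 normalized counts in uninjured loss libraries, against 1432, 1401 and 1388 in controls. All 3 loss libraries lay below tightly grouped controls, and the log2 change of -0.91 (SE 0.23, 95% interval -1.42 to -0.39) missed the threshold (limma adjusted p = 0.0642). Without the first loss library it passed, with a smaller log2 change of -0.60 (adjusted p = 0.0159). In infused hearts Ptn held 9073 and 10765 in loss libraries, against 13863, 11654 and 9608 in controls, and 6598 and 17745 in gain libraries, against 20379, 28770 and 19186 in controls. The loss groups overlapped and the gain groups did not, with a log2 change of -0.23 (limma adjusted p = 0.539) for loss and -1.05 (SE 0.38, adjusted p = 0.185) for gain. Its estimate was negative in all 3 comparisons, and without the second gain library it passed in the gain arm (log2 change -1.76, adjusted p = 0.0351).

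At the cell surface, Fap (chromosome 2, 62500943 to 62574075, minus strand) encodes a membrane serine protease that cleaves after proline. It held 1226 and 1700 normalized counts in gain libraries, against 2633, 2834 and 2597 in infused controls. Fap fell to 1463 ± 335 (SD, n = 2) in gain libraries, against 2688 ± 128 (n = 3), 1.86-fold lower (log2 change -0.90, SE 0.14, 95% interval -1.23 to -0.56, limma adjusted p = 0.0199). That call was lost without the first control (limma adjusted p = 0.0663) or the first gain library (0.0703). Under loss it was higher in every library than in the controls of the same table. It held 3841 and 4102 in infused loss libraries, against 3030, 3394 and 3084 in controls, and 4250, 6912 and 5975 in uninjured loss libraries, against 3879, 3817 and 4203 in controls. Neither passed the threshold, with a log2 change of 0.33 (SE 0.093, limma adjusted p = 0.187) infused and 0.50 (SE 0.16, adjusted p = 0.116) uninjured, though the uninjured change passed without the first loss library (log2 change 0.70, adjusted p = 0.00739). In the gain arm summed fibroblast markers were 3192490 and 3385420 in gain libraries, against 4420080 to 4711160 in controls. Of the 12 markers 0 fell and 2 rose, Tcf21 and Pdpn (1.68-fold, limma adjusted p = 0.00985), and 4 had a log2 change above 0 (median -0.25). The Pdpn call was lost without a variance trend (limma adjusted p = 0.0750). The part of fibroblast markers in the values of Fap and Cthrc1 was not tested.

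Piezo2 (chromosome 18, 63010213 to 63387183, minus strand) encodes a cation channel opened by stretch of the membrane. It held 928 and 1138 normalized counts in gain libraries, against 1479, 1797 and 1482 in controls, and 2241 and 2038 in infused loss libraries, against 928, 1801 and 1554 in controls. Gain libraries were below and loss libraries above all their controls. The log2 change was -0.62 (SE 0.14, limma adjusted p = 0.0533) for gain, just short of the threshold, and 0.64 (SE 0.27, adjusted p = 0.308) for infused loss. In uninjured hearts it held 124, 221 and 209 in loss libraries, against 136, 255 and 285 in controls, with overlap (log2 change -0.26, SE 0.34, adjusted p = 0.699).

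Ddah1 (chromosome 3, 145758675 to 145894277, plus strand) encodes an enzyme that breaks down asymmetric dimethylarginine, an inhibitor of nitric oxide synthases. It held 10722 and 12505 normalized counts in gain libraries, against 24662, 30993 and 16683 in controls, so both gain libraries lay below all 3. The log2 change of -1.01 (SE 0.24, 95% interval -1.57 to -0.45) missed the threshold (limma adjusted p = 0.0642) and passed without the third control (log2 change -1.26, adjusted p = 0.00751). Under loss Ddah1 held 17235 and 22251 in infused loss libraries, against 9694, 13097 and 19677 in controls, and 492, 199 and 428 in uninjured loss libraries, against 126, 148 and 232 in controls. In each of these tables a single loss library lay within the range of the controls, and the log2 changes were 0.53 (SE 0.29, limma adjusted p = 0.412) infused and 1.09 (SE 0.36, adjusted p = 0.131) uninjured. The uninjured change passed without the second loss library (log2 change 1.49, adjusted p = 0.0436).

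Meox1 (chromosome 11, 101877510 to 101894374, minus strand) encodes a homeobox transcription factor of the embryonic somites that, in mouse hearts, is induced in fibroblasts by pressure overload. It held 9098, 8337 and 6861 normalized counts in uninjured loss libraries, against 4789, 5280 and 5706 in controls. All loss libraries lay above all controls, and Meox1 rose to 8099 ± 1138 (SD, n = 3) in loss libraries, against 5258 ± 459 (n = 3), 1.53-fold (log2 change 0.62, SE 0.11, 95% interval 0.36 to 0.88, limma adjusted p = 0.0284). That call was lost without any 1 of the 3 controls (limma adjusted p = 0.0932, 0.126 and 0.0814, for replicates 1, 2 and 3) and without the second loss library (0.0675). In infused hearts Meox1 did not separate the loss libraries, 8975 and 8246, from their controls, 9269, 8214 and 8717. The log2 change there was -0.020 with a 95% interval of -0.26 to 0.22 (limma adjusted p = 0.937). Gain libraries held 14927 and 15231, against 10696, 11912 and 11173 in controls. Meox1 thus rose under gain as well, to 15079 ± 215 (SD, n = 2) in gain libraries, against 11260 ± 612 (n = 3), 1.34-fold (log2 change 0.42, SE 0.088, limma adjusted p = 0.0458). That call was lost without the first (limma adjusted p = 0.136) or second control (0.0595) and without either gain library (0.203 and 0.258), with a log2 change of 0.39 to 0.46 over the 5 fits.

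**Figure D3:**
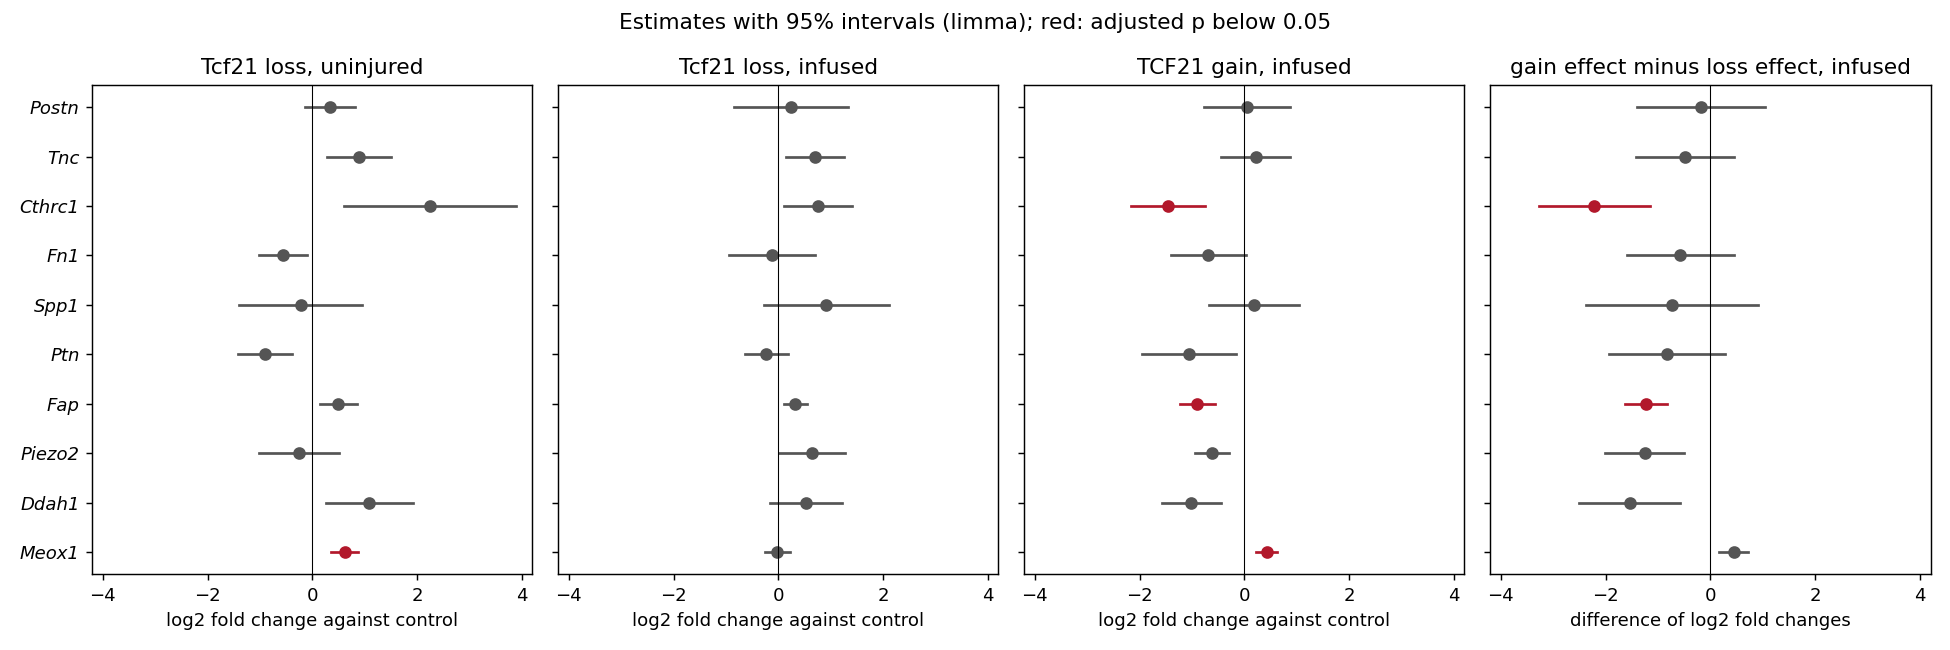
Log2 change against control of the 10 genes in the 3 comparisons, and the gain effect minus the loss effect in infused hearts (points, limma estimates; lines, 95% intervals; red, adjusted p below 0.05). Meox1 is red and right of 0 in uninjured loss and in gain, and Cthrc1 and Fap are red and left of 0 in gain and in the difference of gain and loss.

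Whether gain and loss differed in their effect under infusion was tested directly, as the gain effect minus the loss effect, each within its own table and with its own controls. The arms also differ in Cre driver, control genotype and table, which this contrast cannot tell apart from gain against loss of TCF21. Cthrc1 and Fap passed, so 2 of the 10 genes differed, both toward lower under gain (2.93% of 14319 genes tested passed, 1.22% in that direction), and 5 did at an unadjusted p below 0.05 (16.3% of all genes). The difference of log2 changes was -2.21 for Cthrc1 (SE 0.47, 95% interval -3.27 to -1.16, limma adjusted p = 0.0380) and -1.22 for Fap (SE 0.18, -1.62 to -0.82, adjusted p = 0.00797). Fap passed in all 10 fits with 1 library left out. Cthrc1 passed in 2 of them, those without the third gain-arm control or the third loss-arm control, and its adjusted p was 0.0525 to 0.142 in the other 8, which left out the first or second control of either arm or a gain or loss library. The differences for Piezo2 (-1.26, SE 0.34, limma adjusted p = 0.0868), Ddah1 (-1.54, SE 0.43, adjusted p = 0.0994) and Meox1 (0.44, SE 0.12, adjusted p = 0.0968) missed the threshold. Without the first loss-arm control the difference of Piezo2 passed (-0.97, adjusted p = 0.0320), and without the third that of Ddah1 did (-1.81, adjusted p = 0.0343). For Postn the difference was -0.18 with a 95% interval of -1.40 to 1.04.

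Whether the loss effect differed between infused and uninjured hearts was tested in the same way. The infused and uninjured libraries are in separate tables, so infusion and table cannot be told apart here. Of the 10 genes 0 passed in limma (0.149% of 14130 genes tested did), and 1, Meox1, did at an unadjusted p below 0.05 (11.6% of all genes). Its infused loss effect was 0.64 lower on the log2 scale than its uninjured one (difference -0.64, SE 0.16, 95% interval -0.996 to -0.278, limma adjusted p = 0.255). The difference of Cthrc1 was -1.49 (SE 0.96), that of Piezo2 was 0.90 (SE 0.48) and that of Spp1 was 1.14 (SE 0.82).

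Libraries of 1 group differed in the level of the 10 genes as a whole. Each value was taken as log2(normalized count + 1) minus the control mean of its table. The third Pdgfra-creERT control lay below the control mean for 10 of the 10 genes, with a median of -0.31, while the second lay above for 9, with a median of 0.28. Among infused Tcf21-MerCreMer controls the first had a median of -0.42, against 0.12 and 0.20 in the other 2. Among uninjured controls the third lay above for 9 of the 10, with a median of 0.30. The medians of the loss and gain libraries were 0.40, 0.16 and 0.49 (uninjured loss), 0.31 and 0.47 (infused loss) and -0.80 and -0.40 (gain). Both gain medians lay below all their controls and both infused loss medians above all theirs, whereas the second uninjured loss library, at 0.16, lay below the third control.

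**Figure D4:**
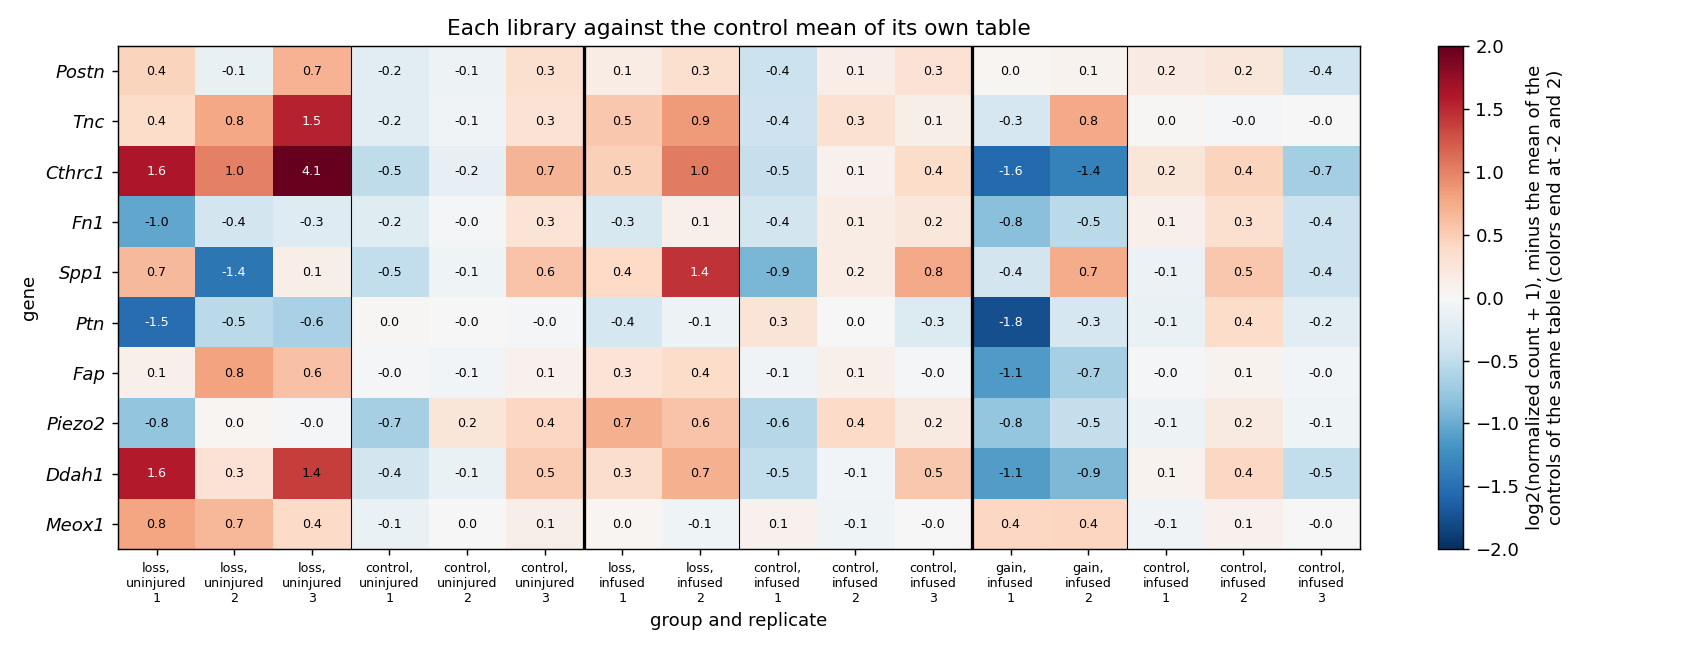
Difference of log2(normalized count + 1) from the control mean of the same table for the 10 genes (rows) in each of the 16 libraries (columns; heavy lines divide tables, thin lines divide groups; colors end at -2 and 2). Cthrc1 in the third uninjured loss library is off the color scale, and the third gain-arm control is at or below 0 in every row.

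Other genes of fibroblast activation, a list of 41 (fibrillar and network collagens, crosslinking enzymes, matricellular proteins, TGF-beta ligands, contractile and signaling genes), changed in few cases. For this list and the later ones, the shares of all tested genes that passed were 3.58% in uninjured loss and 0.912% in infused loss. They were 4.14% in gain, 2.93% in gain minus loss and 0.149% in infused minus uninjured loss. In uninjured loss libraries 2 of 40 tested genes rose and 0 fell (median log2 change 0.17, against -0.01 over all genes). These were Comp, cartilage oligomeric matrix protein (8046 ± 768 normalized counts in loss libraries, against 3783 ± 551, SD, n = 3 each, 2.14-fold, limma adjusted p = 0.00319), and Sfrp2, a secreted Wnt modulator (2.47-fold, adjusted p = 0.0159). Both calls were lost without a variance trend (adjusted p = 0.0592 and 0.119). Comp passed in all 6 fits with 1 library left out, and Sfrp2 did not without the first (adjusted p = 0.0634) or second control (0.0761). In infused loss libraries 1 of 38 fell, Fmod, the collagen-binding proteoglycan fibromodulin (13984 in loss libraries, against 37714 normalized counts, limma adjusted p = 0.0236). That call was lost without the second control (0.145) without either loss library (0.132 and 0.232) and without a variance trend (0.107), and the list's median was 0.23. In gain libraries 1 of 41 rose and 5 fell, with a median of -0.16. The 5 were Fmod (4.98-fold lower, limma adjusted p = 0.00446), Comp (3.18-fold, 0.0205), the membrane protein Lrrc15 (3.73-fold, 0.0242), the ligand Tgfb3 (1.68-fold, 0.0242) and the NADPH oxidase Nox4 (1.73-fold, 0.0139). The ligand Tgfb1 rose 1.47-fold (limma adjusted p = 0.0311). Without a variance trend all 6 of these calls were lost (adjusted p 0.0623 for Fmod to 0.133 for Tgfb1). Fmod passed in all 5 fits with 1 library left out. The other calls were lost without the second gain library (adjusted p 0.0933 to 0.170), those of Lrrc15, Tgfb3 and Tgfb1 also without the first (0.111 to 0.154), those of Comp, Tgfb3 and Tgfb1 also without the first control (0.0659 to 0.0914), and that of Tgfb1 also without the second (0.0624). The gain effect minus the loss effect passed for 2 of 38, Lrrc15 (-3.40, limma adjusted p = 0.0149) and Tgfb3 (-0.85, adjusted p = 0.0273). That of Lrrc15 was lost without either gain library or the second loss library (adjusted p 0.0524 to 0.0631). That of Tgfb3 was lost without the first gain-arm control, either gain library, the second loss-arm control or the second loss library (0.0629 to 0.116).

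Receptors of the secreted proteins, 17 genes of integrins, syndecans and others, changed in the gain arm in 2 of 15 tested cases and in 0 of 15 uninjured and 0 of 14 infused loss cases (limma). Ptprz1, the receptor-type phosphatase that binds pleiotrophin, fell to 33.0 normalized counts in gain libraries, against 148 in controls (4.23-fold lower, adjusted p = 0.0204), beside the Ptn values of the same libraries above. The syndecan Sdc4, a co-receptor for fibronectin, fell to 1739, against 2548 (1.47-fold lower, adjusted p = 0.0467). Each of the 2 calls was lost without the first control, without the second control and without either gain library (adjusted p 0.0512 to 0.259), and that of Sdc4 also without the third control (0.0646). Without a variance trend both calls were lost as well (limma adjusted p = 0.0768 for Ptprz1 and 0.166 for Sdc4). Integrin subunits that bind fibronectin, tenascin or periostin did not pass. In gain libraries Itgav had a log2 change of 0.092 (SE 0.12), Itgb1 one of 0.16 (SE 0.15) and Itga5 one of 0.36 (SE 0.081, adjusted p = 0.0589). Itgb8 had one of -0.52 in gain (limma adjusted p = 0.119) and of -0.52 in infused loss (0.117). Itga8 had one of -0.70 in uninjured loss (limma adjusted p = 0.0712), -1.13 in infused loss (0.165) and 0.10 in gain (0.784). Of the receptors tested, 6 of 15 (uninjured loss), 3 of 14 (infused loss) and 8 of 15 (gain) had a log2 change above 0.

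The closest relatives of the 10 genes, a list of 11, changed in 2 of 10 tested cases under gain, in 0 of 9 under uninjured and 0 of 10 under infused loss (limma), and the differences of effects passed for 0 of 9 (infused minus uninjured loss) and 0 of 10 (gain minus loss). Tgfbi, the other mouse protein built like periostin, fell to 3398 normalized counts in gain libraries, against 6870 in controls (2.01-fold lower, limma adjusted p = 0.0275), next to a Postn log2 change of 0.054. Dmp1, a relative of osteopontin known from bone and dentin, rose to 111, against 18.7 (5.64-fold, adjusted p = 0.0217). Both calls were lost without either gain library (adjusted p 0.0650 to 0.183), and that of Tgfbi also without the first control (0.0741). Without a variance trend both calls were lost as well (limma adjusted p = 0.139 for Tgfbi and 0.0687 for Dmp1). Meox2, the paralog of Meox1, had log2 changes of 0.19 (uninjured loss), -0.39 (infused loss) and -0.033 (gain), none past the threshold. Mdk, midkine, the paralog of pleiotrophin, held 2067 normalized counts in gain libraries, against 3305 in controls (log2 change -0.69, SE 0.17, limma adjusted p = 0.0682). Piezo1 had log2 changes of -0.53 (SE 0.17, adjusted p = 0.127) in uninjured and -0.33 (SE 0.13, adjusted p = 0.298) in infused loss libraries.

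Of 35 regulators of fibroblast activation, Tcf21 included, 3 of 33 fell and 0 rose in uninjured loss libraries, 1 of 35 (Tcf21) fell in infused ones, and 3 of 35 rose and 1 fell in gain libraries. Beside Tcf21, the uninjured calls included the zinc-finger factor Zeb1 (4696 normalized counts in loss libraries, against 6118 in controls, limma adjusted p = 0.0438). Under gain Srf, the serum response factor (1.48-fold, limma adjusted p = 0.0315), and the T-box factor Tbx20 (1.63-fold, 0.0374) rose, and Nfatc4, a calcineurin-dependent factor (1266 against 2198 normalized counts, 0.0115), fell. Without a variance trend the calls of Zeb1 (limma adjusted p = 0.159), Srf (0.0931), Tbx20 (0.143) and Nfatc4 (0.0808) were lost. So was that of Tcf21 under gain (limma adjusted p = 0.0623). Zeb1 passed without the first loss library and was lost without any of the other 5 (limma adjusted p 0.0590 to 0.181). Srf was lost without the first or second control or either gain library (0.0763 to 0.190), Tbx20 without the first control or either gain library (0.0846 to 0.203), and Nfatc4 without the first gain library (0.0651).

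Markers of other cells moved with the groups in part. Of 12 mural markers 4 fell in uninjured loss libraries (Cspg4, Abcc9, Kcnj8 and Vtn), and their sum was 30484 to 34310 in loss libraries, against 36369 to 40467 in controls. Cspg4 passed in 6 of 6 fits with 1 library left out, Abcc9 in 4, Vtn in 2 and Kcnj8 in 1. Without a variance trend Abcc9, Kcnj8 and Vtn were lost, and with the replicate block Kcnj8 and Vtn. In the gain table the mural sum was 27066 and 29992 in gain libraries, against 32898 to 39552 in controls, with 1 of 11, Des, higher and 3 of 11 above 0. All 12 mural markers were above 0 in every group. Sums of 14 endothelial markers were 12431 to 14069 in uninjured loss libraries, against 16271 to 16468 in controls (Erg not listed, Cdh5 at 0 in all 3 loss libraries). They were 3263 and 3637 in infused loss libraries, against 4090 to 7106 in controls, with 0 of 12 called and 7 of 12 above 0. They were 5397 and 6822 in gain libraries, against 8420 to 11403 in controls, with 2 of 13 lower (Erg and Tek) and 7 of 13 above 0 (median log2 change 0.18). Most of that sum was Tek alone, at 5315 in gain libraries, against 9289 in controls. Sums of 16 cardiomyocyte markers were 1170 and 1252 in gain libraries, against 952 to 1031 in controls. Of 13 tested 6 had a log2 change above 0 (median -0.062), and 1 rose, Actc1 (311 against 130 normalized counts, 2.41-fold, limma adjusted p = 0.0315). Sums of 10 epicardial markers were 10011 to 16557 in uninjured loss libraries, against 7043 to 9256 in controls, 11616 and 11948 in infused loss libraries, against 8596 to 10112, and 14697 and 18587 in gain libraries, against 7366 to 8961. Only 4 of those 10 were listed in the uninjured table and 3 in each infused one, Upk3b, Msln, Krt19, Krt8, Krt18 and Upk1b in none. In each comparison 2 were tested, and 1 of the 2 had a log2 change above 0. The 1 call was Aldh1a2, higher under gain (15125 against 6546, limma adjusted p = 0.00954). Most of the sum in the gain arm was Aldh1a2 alone, at 13283 and 16968 in gain libraries, against 5612 to 7113 in controls. Sums of 11 erythroid and platelet markers were 374 to 1199 in uninjured loss libraries, against 263 to 299 in controls, and 183 and 504 in infused loss libraries, against 71.1 to 78.6. In gain libraries they were 328 and 385, against 247 to 330. Of those tested, 0 of 6 (uninjured loss), 1 of 5 (infused loss) and 0 of 5 (gain) passed, with 5, 4 and 4 above 0. The infused call was Hba-a1 (102 normalized counts in loss libraries, against 4.64 in controls, limma adjusted p = 0.0380). It was lost without the first (adjusted p = 0.0591) or second control (0.162) and without a variance trend (0.101). Sums of 10 Schwann cell markers were 2306 to 2549 in uninjured loss libraries, against 2676 to 3824 in controls, with 0 of 5 called. They were 562 and 589 in infused loss libraries, against 1022 to 1478 in controls. That gap was mostly Cdh19 (381 in loss libraries, against 1057 in controls, limma adjusted p = 0.0323), and 2 of the 4 tested were above 0 (median -0.11). With 1 library left out Des, Erg, Tek, Actc1 and the infused Cdh19 call each passed in 2 of 5 fits and Aldh1a2 in 4, and all 6 were lost without a variance trend. Slc4a1 and Sox10 were listed in no table. The part of these cells in the values of the 10 genes was not tested.

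Genes with a pattern most like Postn and Meox1 were ranked by the root mean square difference of the centered log2 values over the 16 libraries, among 13938 genes that passed the filter in all 3 tables. Nearest to Postn were Pdk3, a kinase of the pyruvate dehydrogenase complex (0.107), the mitochondrial transcription elongation factor Tefm (0.174), Gm38561 (0.186) and the adhesion receptor Adgrl1 (0.194), against a median of 0.408 over all genes. Nearest to Meox1 were Shkbp1 (0.139), Eng, the TGF-beta co-receptor endoglin (0.155), Rpf2 (0.157) and Mrps35 (0.158), against a median of 0.420. A gene with no deviation in any library would score 0.309 against Postn and 0.321 against Meox1, below both medians. The measure ranks likeness of pattern in these 16 libraries and carries no test.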

How the data were processed

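RNA of sorted cardiac fibroblasts was amplified with a SMART-seq v4 low-input kit, per the labels' protocols. kallisto, DESeq2 and GRCm38 are listed, without versions, per the submitters' processing notes. What was deposited is a normalized signal, divided out by the authors separately for each of 3 tables (18634 genes uninjured loss, 17303 infused loss, 17730 gain). Of low values (0.5 to 6), 35.6% to 67.5% per library lay within 0.03 of whole steps, so whole reads could not be recovered and count models were not used. Depth in reads is unknown.

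Groups came from the sample labels. limma 3.58.1 in R 4.3.3 was fitted to log2(value + 1), with a pseudocount of 1 and a variance trend, over genes with a mean of at least 10, with only the groups compared and no covariate. The 2 differences of effects were contrasts over 2 tables, on genes that passed in both. On the log2(value + 1) scale folds of low genes are understated. Fits were tested on simulated data. The 2-library groups rest on the spread pooled over groups and genes. Correlations of same-numbered deviations were -0.0538 to 0.176. They cannot settle whether replicate numbers pair libraries, since the deviations in a 2-library group are mirror images. A transcript length was found by symbol for 89.9% to 91.1% of the genes tested per table.

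The members and gene lists were chosen with earlier results of these data known. Named genes were every member, Tcf21, list genes past the threshold (up to 8 per list by smallest p), any listed receptor or relative, and the 4 genes most like Postn and Meox1. Some genes that this rule took are not reported here. Alternatives were a pseudocount of 10, no filter, rescaled libraries, no variance trend, library weights, a replicate block, another transcript length and each library left out.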

Additional observations from a re-analysis of the deposited data

Results flagged for a closer look

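The effects of gain and of loss under infusion differed by the test of the difference itself, with limma, for 2 of the 10 genes. Cre driver, control genotype and table differ between the arms as well and cannot be told apart from gain against loss. The gain effect minus the loss effect was -2.21 on the log2 scale for Cthrc1 (limma adjusted p = 0.0380) and -1.22 for Fap (adjusted p = 0.00797). It also differed for Lrrc15 (-3.40, adjusted p = 0.0149), Tgfb3 (-0.85, 0.0273), Nfatc4 (-0.88, 0.0196) and Tbx20 (1.15, 0.0238), and for the targeted gene Tcf21 itself (4.45, 0.000180). With 1 library left out Nfatc4 passed in 7 of 10 fits (adjusted p up to 0.0840) and Tbx20 in 6 (up to 0.107). Among markers of cell types the gain effect minus the loss effect passed for Pdpn (0.98, limma adjusted p = 0.00452), Erg (-1.94, 0.0363) and Cdh19 (1.38, 0.0192), in 10, 3 and 6 of 10 such fits. The loss effect in infused minus that in uninjured hearts passed for Cd74 (-2.53, limma adjusted p = 0.0389) and Cspg4 (1.62, 0.0243), in 3 and 5 of 11 fits. Of these 5 marker genes Pdpn alone passed without a variance trend. The gain minus loss differences of Cthrc1 (limma adjusted p = 0.0901), Tgfb3 (0.0511), Nfatc4 (0.0543) and Tbx20 (0.0629) were also lost without it. Comp was the gene of the activation list whose loss effect differed between infused and uninjured hearts (infused minus uninjured -2.24, limma adjusted p = 0.00157). It held 8046 ± 768 normalized counts in uninjured loss libraries, against 3783 ± 551 in controls (SD, n = 3 each). The difference is larger than that rise (log2 change 1.09), so the infused loss estimate of Comp was negative, and it did not pass. The groups of 2 or 3 libraries are too small for a test of single outlying libraries.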

How the results depend on the processing

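All 50 results of the 10 genes (10 genes in 5 comparisons) kept direction and side of the threshold with a pseudocount of 10, without the filter and with rescaled libraries. The variance model mattered more. Without a variance trend 94 genes passed in uninjured loss, 72 in infused loss, 25 in gain and 263 in gain minus loss, and 0 of the 10 genes passed uninjured, 0 in gain and 1 (Fap) in gain minus loss. With library weights 949, 308, 1013, 39 (infused minus uninjured loss) and 780 genes passed, and 4 of the 10 uninjured and 5 in gain. With the replicate block 227, 1462, 1842, 79 and 901 genes passed, and 4 of the 10 in infused loss, 7 in gain and 5 in gain minus loss, while Meox1 did not pass uninjured and Tnc did. In the infused tables the block leaves out the third control, which has no partner. Not every library correlated best with its own number, and whether the numbers pair libraries is not settled.

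With 1 library left out, 88 to 891 genes passed in uninjured loss (0 to 4 of the 10), 32 to 175 in infused loss (0), 124 to 821 in gain (0 to 4), 12 to 57 in infused minus uninjured loss (0) and 155 to 436 in gain minus loss (1 to 3).

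Signs turned for values near 0: the infused loss change of Fn1 with the block (0.00071), that of Meox1 with weights (0.027), the gain change of Postn with weights (-0.049) and the block (-0.15), that of Spp1 with the block (-0.030), and the infused minus uninjured loss difference of Postn with the block (0.047). Leaving out 1 library gave -0.66 to 0.39 (Spp1) and -0.59 to 0.0019 (Piezo2) in uninjured loss, -0.32 to 0.094 (Fn1) and -0.081 to 0.041 (Meox1) in infused loss, -0.15 to 0.17 (Postn), -0.34 to 0.76 (Tnc) and -0.37 to 0.74 (Spp1) in gain, -0.34 to 0.085 (Postn) and -0.45 to 0.13 (Tnc) in infused minus uninjured loss, and -0.38 to 0.029 (Postn) and -1.03 to 0.068 (Tnc) in gain minus loss. Of the 21 calls in infused minus uninjured loss, 33.3% were higher, against 52.6% without the trend, 48.7% with weights and 19% with the block. With the median transcript length 5 of the 10 genes kept their place in uninjured controls. The causes were not tested.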
